A study of Mus musculus with 6 samples.

Results

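The interleukin-1 receptor cluster of the mouse is a run of 7 neighbouring genes on chromosome 1, taken here from the deposited count table by gene identifier and described in map order: Il1r2, Il1r1, Il1rl2, Il1rl1, Il18r1, Il18rap and Slc9a4. They are 7 of the 55471 genes counted. Poly(A) RNA was sequenced from primary osteoblasts, the cells that lay down bone, which were prepared from the skull caps of C57BL/6 pups aged 3 days and kept in culture for another 3 days. WT denotes 3 libraries from wild type pups, and the sources used here do not say whether those pups carried floxed alleles. TCKO denotes 3 libraries labelled as triple knockout, from pups that carried Prx1-Cre together with the floxed alleles Tet1fl/fl, Tet2fl/fl and also Tet3fl/fl. Prx1-Cre is a recombinase driven in limb and skull mesenchyme, so cells of other origin in the culture keep the floxed alleles intact. Tet1, Tet2 and Tet3 encode the enzymes that oxidise methylated cytosine. The genotype comparison asks how expression differs when these enzymes are deleted. No source states that the libraries came from separate pups or cultures. The p-values given for other genes therefore measure the spread between these libraries. That spread may be technical, except that TCKO replicate 3 came from cells of another sex, as its sex-linked counts given below show.

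Members of the interleukin-1 (IL-1) receptor family sit in the cell membrane, bind a cytokine outside the cell through immunoglobulin-like domains and signal inside it through a TIR domain shared with the toll-like receptors. A ligand-binding chain pairs with an accessory chain, and the pair recruits MYD88 and the IRAK kinases to activate NF-kappaB and MAP kinases. In bone, IL-1 is known as a strong inducer of resorption, acting largely on osteoblasts and stromal cells that then supply osteoclast-promoting factors. The cluster holds the IL-1 receptor (Il1r1), its decoy (Il1r2), the IL-36 receptor (Il1rl2), the IL-33 receptor ST2 (Il1rl1), both chains of the IL-18 receptor (Il18r1 and Il18rap), and Slc9a4, a sodium/proton exchanger that belongs to another family. The shared accessory chain of the IL-1, IL-33 and IL-36 receptors, Il1rap, lies on chromosome 16.

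In these libraries 2 members were far higher in TCKO, Il1rl1 by 11.4-fold and Il18rap by 14.8-fold. Il1rl2 was 1.44-fold higher, Il1r1 overlapped between the genotypes, and Il1r2, Il18r1 and Slc9a4 had at most 3 counts in any library. The cluster was chosen with this contrast known, so the values of its members are descriptions and carry no test. Of the 7 members 4 had enough counts to test. Under the rule that calls a gene at an edgeR adjusted p under 0.05 and a fold change over 2, 2 of these 4 were called higher. The same rule called 6.35% of all tested genes (3.16% of all tested genes higher and 3.19% lower). At an adjusted p under 0.05 alone 3 of the 4 were called, all higher, where the background was 17.7% (9.07% higher). Of these, Il1rl2 lost the call in 4 of the 6 fits without 1 library and with replicates 1 and 2 of each genotype summed. In 3 members the CPM values of the genotypes did not overlap, where the background was 38.3% (19.4% higher). Nothing is read from these counts, because the choice of the cluster used the contrast.

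All 7 genes lie on the plus strand of build GRCm38, in a span of 556.6 kb at chr1:40074079-40630725. Il1r2 (ENSMUSG00000026073) occupies 40074079 to 40125231, and 99848 bp separate it from Il1r1 (ENSMUSG00000026072) at 40225080 to 40317257. Il1rl2 (ENSMUSG00000070942) follows after only 7352 bp, at 40324610 to 40367562. Il1rl1 (ENSMUSG00000026069) lies 62007 bp further on, at 40429570 to 40465415. Il18r1 (ENSMUSG00000026070) begins 136 bp beyond the end of Il1rl1 and runs from 40465552 to 40500854. Il18rap (ENSMUSG00000026068) occupies 40515362 to 40551705, and Slc9a4 (ENSMUSG00000026065) closes the run at 40580081 to 40630725. Apart from Slc9a4, whose exons share 207 and 764 bp with 2 opposite-strand genes (Gm35801 and Gm37435), no member shared an exon base with another gene. The strand setting of the counting is not stated, so counts of Slc9a4 could include reads of those genes.

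The start sites of the genes that stood furthest apart between the genotypes are shown next, with the downstream Il1r1 start, whose gene overlapped between them, for comparison. The sequences are RefSeq windows of build GRCm38.p6 on the plus strand, each holding 250 bases before and 50 bases from the annotated start. The Il1rl1 windows cover chr1:40429320-40429619 and chr1:40439379-40439678, the Il18rap window chr1:40515112-40515411 and the Il1r1 window chr1:40266336-40266635. Capitals mark the letters TGTGGT or their reverse complement ACCACA, the core bound by RUNX factors, and GGAANTTCC, a form of the NF-kappaB site.
Il1rl1 distal: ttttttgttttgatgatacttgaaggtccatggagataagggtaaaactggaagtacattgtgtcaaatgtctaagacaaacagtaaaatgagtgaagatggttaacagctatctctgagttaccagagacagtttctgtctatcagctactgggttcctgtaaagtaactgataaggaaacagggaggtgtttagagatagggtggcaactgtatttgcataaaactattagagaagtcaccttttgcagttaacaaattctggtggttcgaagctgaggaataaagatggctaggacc
Il1rl1 proximal: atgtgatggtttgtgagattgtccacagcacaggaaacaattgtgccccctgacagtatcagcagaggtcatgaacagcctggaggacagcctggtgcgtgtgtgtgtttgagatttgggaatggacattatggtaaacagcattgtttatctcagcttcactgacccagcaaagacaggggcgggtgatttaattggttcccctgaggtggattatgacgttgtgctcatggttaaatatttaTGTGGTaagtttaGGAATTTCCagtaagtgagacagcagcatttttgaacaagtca
Il18rap: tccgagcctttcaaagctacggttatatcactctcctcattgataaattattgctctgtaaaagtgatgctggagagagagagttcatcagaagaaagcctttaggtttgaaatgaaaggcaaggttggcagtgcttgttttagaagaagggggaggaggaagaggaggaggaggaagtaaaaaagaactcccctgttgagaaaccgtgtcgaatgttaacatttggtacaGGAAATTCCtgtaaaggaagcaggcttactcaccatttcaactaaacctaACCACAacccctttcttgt
Il1r1 downstream start: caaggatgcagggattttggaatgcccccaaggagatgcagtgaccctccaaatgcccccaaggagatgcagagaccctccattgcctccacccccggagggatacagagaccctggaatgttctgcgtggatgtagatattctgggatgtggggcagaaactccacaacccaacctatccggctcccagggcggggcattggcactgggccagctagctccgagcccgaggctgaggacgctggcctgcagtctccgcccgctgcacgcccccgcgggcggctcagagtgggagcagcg
The windows were read because the study concerns DNA methylation at RUNX sites, and the NF-kappaB form was added after the sequences had been seen. Il1rl1 has 2 annotated starts 10059 bp apart. The distal start is known from haematopoietic cells and the proximal one from fibroblasts, but counts per gene do not tell the starts apart, nor the membrane-bound receptor from the soluble decoy made from the same gene. TGTGGT stood 6 bases before the proximal Il1rl1 start and, on the other strand, 31 bases after the Il18rap start. GGAANTTCC stood 7 bases after the proximal Il1rl1 start and 19 bases before that of Il18rap. Both sets of letters were absent from the distal Il1rl1 window and from the Il1r1 window shown. Searched on both strands, TGTGGT was found in 16.8% of all 32851 windows and in 4 of the 10 windows of 6 members (Il1rl2, proximal Il1rl1, 1 of 3 of Il18r1, and Il18rap). GGAANTTCC, which reads the same on both strands, was found in 0.9% of all windows and in 4 of the 10 (Il1r2, Il1rl2, proximal Il1rl1 and Il18rap), among them that of Il1r2, which had at most 3 counts in any library. TGANTCA, the AP-1 site, was in 7.8% of all windows and in 0 of the 10. A match of letters is a description of the sequence and not evidence of binding. Because GGAANTTCC was picked after the sequences had been seen, nothing is read from its 4 of 10 beside the share over all windows.

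The windows differed in their number of CpG, the dinucleotide on which TET enzymes act. The distal Il1rl1 window held 1 CpG, more than 5.4% of all windows, and the proximal one held 3. Il18rap held 4, Il1rl2 held 3, and the 3 windows of Il18r1 held 5, 7 and 8, where the median over all windows was 7. The Il1r1 windows held 5 and 14, and that of Il1r2 held 16. Methylation of these windows was not analysed here.

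Expression values are given as counts, as CPM (counts scaled to a library of fixed size, with TMM factors), and, where genes are compared with each other, as RPKM (counts per kilobase of summed exon length, scaled to the library total). The libraries held 8019999 to 10177214 counts. The value of 3 counts, an expected count that an observed 0 can hide, was 0.295 to 0.374 CPM, and covers counting error only. TCKO replicate 3 stood apart in sex-linked genes, with 4583 counts of Xist against 1 to 4 elsewhere and 0 of the Y-linked Ddx3y against 675 to 1094. Both libraries numbered 3 had more mitochondrial counts, at 2.22% (WT) and 2.47% (TCKO) against 1.11 to 1.24% in the other 4. Tet1 was lower in TCKO (log2 fold change -0.97 ± 0.16, edgeR adjusted p = 0.00648), Tet2 did not pass the test (-0.14 ± 0.14, edgeR adjusted p = 0.545) and Tet3 was higher (0.51 ± 0.09, edgeR adjusted p = 0.00745). Counts over whole genes include exons outside a floxed segment, so these values check the labels only in part, and directions below are between libraries as labelled.

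**Figure D1:**
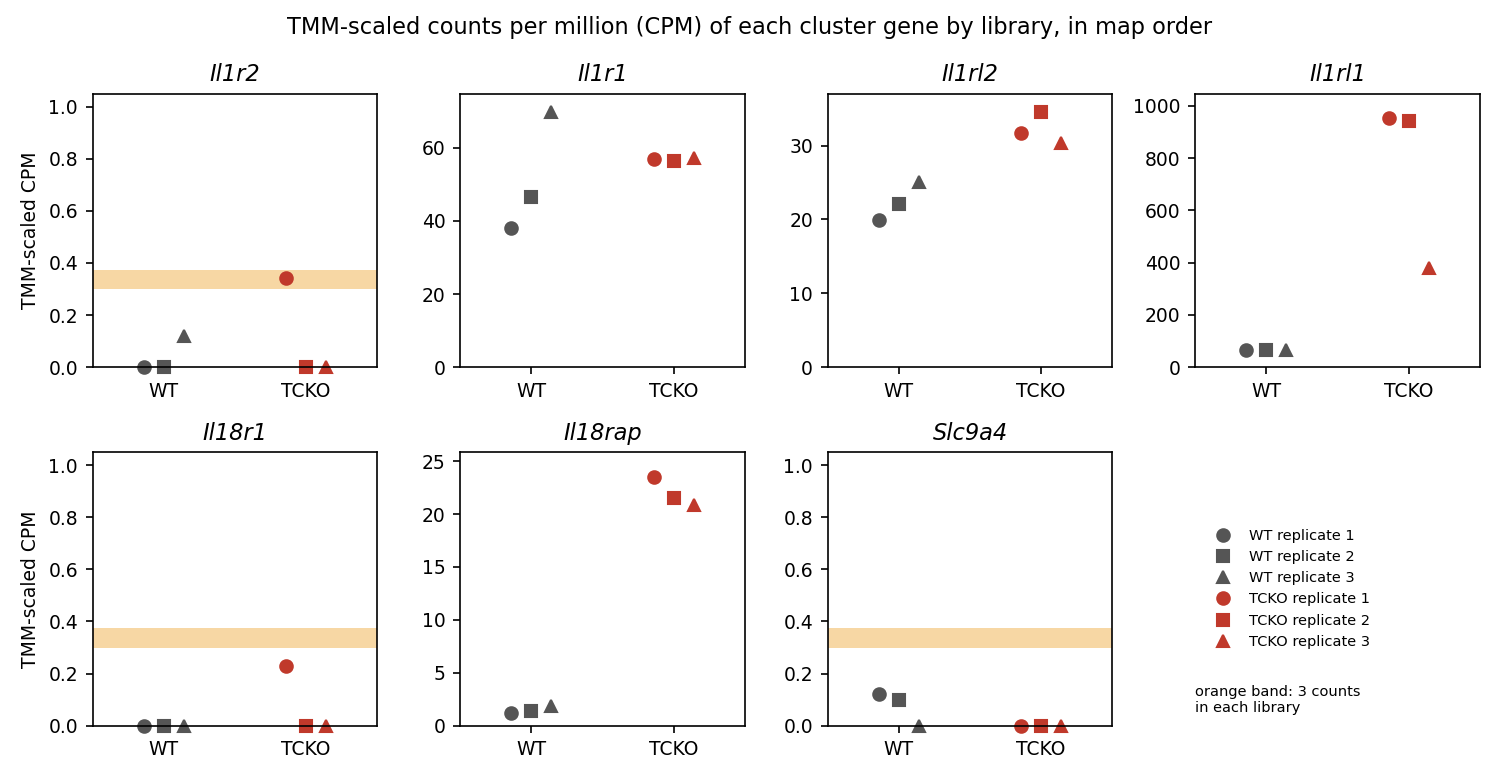
TMM-scaled CPM (vertical axis, separate scale in each panel) of the 7 cluster genes in map order, with 1 point per library; grey is WT, red is TCKO, and the symbol gives the replicate number. Il1rl1 and Il18rap were higher in all 3 TCKO libraries, Il1r1 overlapped, and Il1r2, Il18r1 and Slc9a4 stayed at or under the orange band, which marks 3 counts.

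Il1rl1 encodes ST2, the receptor through which IL-33, an alarm signal released by damaged cells, acts on mast cells, type 2 lymphocytes and regulatory T cells. Its counts were 533, 677 and 553 in WT replicates 1, 2 and 3, and 8345, 7576 and 3379 in TCKO. Scaled, these were 64.5, 67.6 and 67.0 CPM in WT against 953, 942 and 379 in TCKO. The WT libraries lay close together, TCKO replicates 1 and 2 were near each other, and TCKO replicate 3 lay above every WT library. In CPM, TCKO replicate 3 was nearer to the WT values than to the other TCKO libraries. On the log2 scale it was nearer to the other TCKO libraries. Means were 66.4 ± 1.62 and 758 ± 328 CPM (SD, n = 3 each), a log2 fold change of 3.51 ± 0.34 (standard error). Within replicates 1 and 2 alone the log2 fold change was 3.84, and between the libraries numbered 3 it was 2.50. The low value in TCKO replicate 3 went with the sex-linked counts and the mitochondrial share given above, and the part of either in it was not tested.

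Il18rap encodes the accessory chain of the IL-18 receptor, without which the ligand-binding chain IL18R1 holds IL-18 weakly and does not signal. The WT libraries held 10, 14 and 15 counts and the TCKO libraries 206, 173 and 186. These were 1.21, 1.40 and 1.82 CPM against 23.5, 21.5 and 20.9. All 3 TCKO libraries lay close together, replicate 3 included, and no value came near the WT range. Means were 1.48 ± 0.311 and 22.0 ± 1.38 CPM (SD, n = 3 each), and the log2 fold change was 3.89 ± 0.18. It was 4.09 within replicates 1 and 2 and 3.36 between the libraries numbered 3, where the WT library was the highest of its genotype.

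Il18r1, the partner of Il18rap and the chain that binds IL-18, lies between Il1rl1 and Il18rap. It had 0 counts in all 3 WT libraries and 2, 0 and 0 in TCKO. Its highest value, 0.0476 RPKM in TCKO replicate 1, was below the 0.0612 to 0.0777 RPKM that 3 counts stand for. RNA of the accessory chain was therefore counted at 173 or more per TCKO library while that of the binding chain was not detectable at this depth. No fold change is given for Il18r1, because both genotypes were at or under the floor.

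Il1rl2 encodes the receptor for the IL-36 cytokines, best known from skin. It had 165, 222 and 207 counts in WT against 278, 278 and 271 in TCKO. As CPM the WT values were 19.98, 22.2 and 25.1 and the TCKO values 31.7, 34.6 and 30.4, so that the lowest TCKO library lay above the highest WT library. Means were 22.4 ± 2.57 and 32.2 ± 2.12 CPM (SD, n = 3 each), with a log2 fold change of 0.52 ± 0.11. The difference was 0.65 on the log2 scale within replicates 1 and 2 and 0.27 between the libraries numbered 3.

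Il1r1 encodes the receptor that carries the IL-1 signal. Its counts were 315, 466 and 575 in WT and 498, 453 and 511 in TCKO, or 38.1, 46.5 and 69.7 CPM against 56.8, 56.3 and 57.3. The TCKO libraries agreed within about 1 CPM and lay inside the wide WT range. Means were 51.4 ± 16.4 and 56.8 ± 0.506 CPM (SD, n = 3 each), and the log2 fold change was 0.14 ± 0.20. Its direction rested on the libraries chosen: it was 0.41 within replicates 1 and 2, -0.28 between the libraries numbered 3, and -0.03 without WT replicate 1.

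Il1r2, the decoy that binds IL-1 and cannot signal, had 0, 0 and 1 counts in WT against 3, 0 and 0 in TCKO. The floor of 3 counts was 0.154 to 0.196 RPKM for this short gene, the highest of the 3 undetected members. Slc9a4, known from the acid-secreting cells of the stomach, had 1, 1 and 0 counts in WT and 0 in each TCKO library, under a floor of 0.0646 to 0.0820 RPKM. The ratio of decoy to signalling receptor was not computed, and Il1r2 was at or under the floor of 3 counts in every library.

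**Figure D2:**
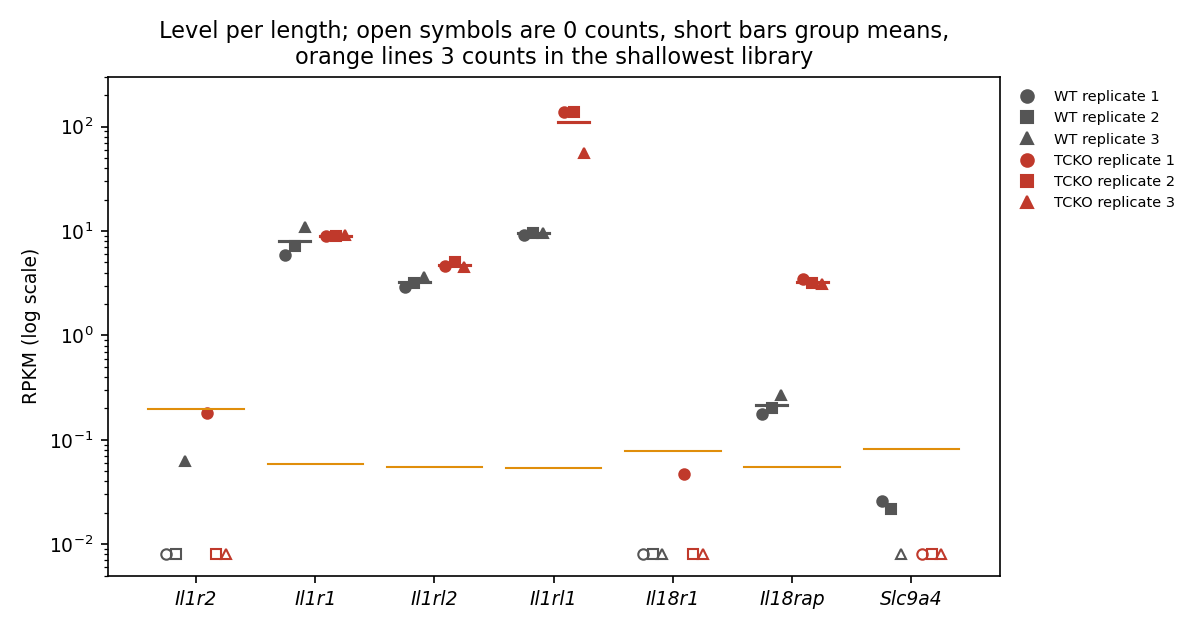
RPKM (vertical axis, log scale) of the 7 cluster genes in the 6 libraries, with short bars at the genotype means, orange lines at 3 counts in the shallowest library and open symbols at the bottom for 0 counts. Il1rl1 and Il1r1 sat together in WT, near 9.51 and 7.99 RPKM, and apart in TCKO, at 110.5 and 9.002 RPKM.

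Levels per length place the members in order within each genotype. In WT, Il1rl1 (9.20, 9.65 and 9.67 RPKM) and Il1r1 (5.89, 7.20 and 10.9 RPKM) overlapped, so that their order was not resolved. Il1rl2 followed at 2.88, 3.20 and 3.66 RPKM, clear of both, and Il18rap was lowest of the 4 detected genes at 0.176, 0.204 and 0.268 RPKM. In TCKO the 4 genes were clear of each other: Il1rl1 at 139, 137 and 55.9 RPKM, Il1r1 at 8.97, 8.88 and 9.16, Il1rl2 at 4.68, 5.09 and 4.54, and Il18rap at 3.50, 3.19 and 3.14. Ranked by mean RPKM among the 13826 tested genes, Il1rl1 stood at 4971 in WT and at 481 in TCKO. Il18rap stood at 13585 and at 8925. Il1r1 stood at 5582 and 5256, and Il1rl2 at 8894 and 7580.

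A ratio within a library needs no scaling between libraries. The ratio of Il1rl1 to Il1r1 in RPKM was 1.56, 1.34 and 0.888 in WT and 15.5, 15.4 and 6.10 in TCKO. That of Il18rap to Il1r1 was 0.0299, 0.0283 and 0.0246 in WT and 0.390, 0.360 and 0.343 in TCKO. Both ratios were apart between the genotypes in every library, TCKO replicate 3 included. Il1rl2 to Il1r1 was 0.489, 0.445 and 0.336 against 0.521, 0.573 and 0.495, a narrow gap. The ratio of Il1rl1 to Il18rap, the members with the highest fold changes, overlapped, at 52.2, 47.4 and 36.1 in WT and 39.7, 42.9 and 17.8 in TCKO. Of all counts in the cluster, Il1rl1 took 52.1, 49.1 and 40.9% in WT and 89.4, 89.3 and 77.7% in TCKO.

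The genes whose log2 CPM followed that of Il1rl1 most closely over the 6 libraries, among 10955 genes with enough counts to compare, were Crabp1 (Pearson r = 0.9986), Mbp (0.9983), Stambpl1 (0.9982), Maged2 (0.9981) and Plat (0.998). The points share the genotype split and an intermediate TCKO replicate 3. Plat, tissue plasminogen activator, was at 40.2, 43.7 and 42.4 CPM in WT and at 312.8, 336.7 and 139.7 CPM in TCKO. Maged2 followed the same pattern over a small range, at 147.5, 144.8 and 148.5 against 206.5, 204.9 and 185.1 CPM.

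**Figure D3:**
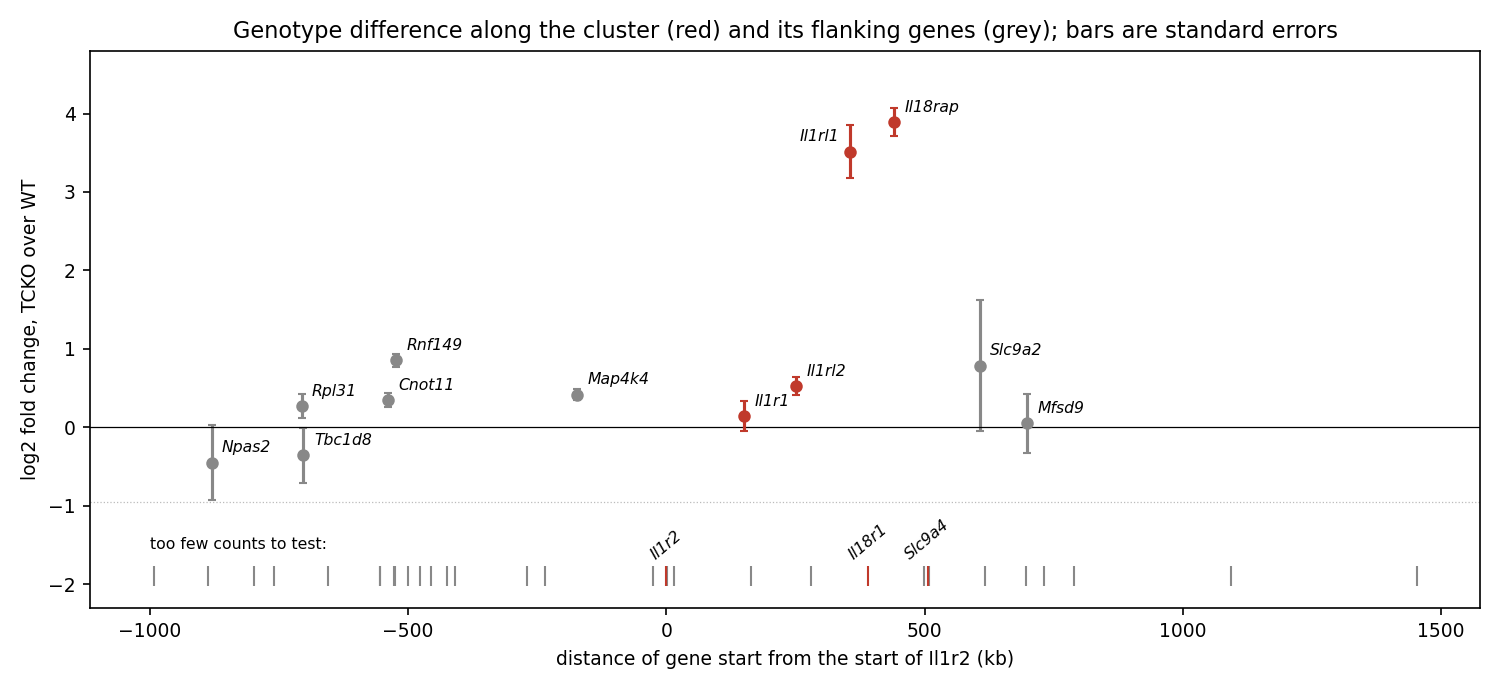
Log2 fold change of TCKO over WT with its standard error (vertical axis) against the distance of each gene's start from that of Il1r2 in kb (horizontal axis), for the cluster in red and the genes within 1 Mb in grey; ticks at the bottom are genes with too few counts to test. Il1rl1 and Il18rap stand at 3.51 and 3.89, and the highest value among flanking genes that passed the test is 0.86 (Rnf149).

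Between the cluster genes or within 1 Mb of the cluster, 37 other genes of the table had their start, and 8 of them had enough counts to test. Of the 37, 16 had no count in any library and 24 had at most 3 in each. The test was passed by 3 of the 8, all higher in TCKO and all on the Il1r2 side, where 9.07% of tested genes were higher. Rnf149, a ubiquitin ligase with a RING finger, had 239, 260 and 249 counts in WT against 443, 413 and 463 in TCKO (log2 fold change 0.86 ± 0.08, edgeR adjusted p = 0.000696), and shares exon bases with Gm15832 on the same strand. Map4k4, a kinase of the stress-activated MAP kinase pathway and the nearest tested gene on that side, was higher by a smaller amount (log2 fold change 0.42 ± 0.08, edgeR adjusted p = 0.00854). Cnot11, a subunit of the deadenylase complex CCR4-NOT, was too (0.35 ± 0.09, edgeR adjusted p = 0.0359). Rnf149 passed in each fit without 1 library and Map4k4 in 5 of the 6, failing without WT replicate 2, whereas Cnot11 failed in 5 of the 6 and in DESeq2 (DESeq2 adjusted p = 0.0784). With replicates 1 and 2 summed only Rnf149 still passed. On the Slc9a4 side neither tested gene passed. Slc9a2, another exchanger, had 11, 16 and 31 counts in WT against 8, 11 and 81 in TCKO (0.79 ± 0.84, edgeR adjusted p = 0.564), with its only high TCKO value in replicate 3.

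Ligands of the receptors were examined next. Of the 10 IL-1 family cytokines and antagonists, 3 had enough counts to test. The other 7, among them Il1a and Il1b, had at most 3 counts in every library. Il1rn, the antagonist that blocks the IL-1 receptor, had 53, 40 and 53 counts in WT against 22, 26 and 15 in TCKO and was lower (log2 fold change -1.18 ± 0.31, edgeR adjusted p = 0.0363), a call lost when replicates 1 and 2 of each genotype were summed (edgeR adjusted p = 0.146) and in 5 of the 6 fits without 1 library (the highest edgeR adjusted p, 0.129, without WT replicate 1). Il33, the ligand of ST2, had 10, 11 and 5 counts in WT against 34, 45 and 11 in TCKO. Its log2 fold change was 1.84 ± 0.57 and did not pass (edgeR adjusted p = 0.0608), did with the replicate number as a block (edgeR adjusted p = 0.0102), and did not with that block on summed replicates 1 and 2 (edgeR adjusted p = 0.0686). Il18 had 28, 39 and 23 counts against 17, 15 and 20 (-0.73 ± 0.25, edgeR adjusted p = 0.0795).

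Among 5 receptor subunits and binding proteins encoded elsewhere, 2 were tested. Il1rap, the accessory chain, rose from 179, 229 and 208 counts to 530, 483 and 595, or from 23.2 ± 1.80 to 62.4 ± 3.74 CPM (SD, n = 3 each). The difference was 1.43 ± 0.09 on the log2 scale (edgeR adjusted p = 0.000127), and it passed in each alternative run. Il18bp, a secreted protein that traps IL-18, had 17, 26 and 36 counts in WT against 14, 10 and 36 in TCKO (-0.37 ± 0.49, edgeR adjusted p = 0.645). Sigirr, an inhibitory member of the family, had 6, 3 and 2 counts against 12, 8 and 8, too few to test.

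All 17 proteins listed for signalling below the receptors were tested, and 15 did not pass. The 2 that did compare with a background of 17.7%. Irak2, a kinase-like protein that sustains the signal of the receptor complex, had 125, 155 and 146 counts in WT against 445, 421 and 411 in TCKO (log2 fold change 1.63 ± 0.10, edgeR adjusted p = 0.000124). It also passed in each alternative. Ikbkg, the regulatory subunit of the IKK complex, was lower by a small amount (-0.54 ± 0.13, edgeR adjusted p = 0.0239), a call lost with replicates 1 and 2 summed (edgeR adjusted p = 0.262) and in 4 of the 6 fits without 1 library (up to 0.0955, without WT replicate 2). Ikbkg lies on chromosome X and had 1333, 1681 and 1206 counts in WT against 862, 780 and 1169 in TCKO. Its highest TCKO value was in replicate 3, which stood apart in sex-linked genes, and the part of sex was not tested. The shared adaptor Myd88 did not pass (log2 fold change -0.09, edgeR adjusted p = 0.690). The median over the 17 was -0.08, against 0.00 over all tested genes. Of the 5 genes of the inflammasome, the complex that processes IL-1beta and IL-18, only Gsdmd could be tested (-0.44 ± 0.15, edgeR adjusted p = 0.0892, 0.0309 with the replicate block, and 0.166 with the block on summed replicates 1 and 2). Casp1, the processing protease, had 15, 12 and 6 counts in WT against 1, 3 and 2 in TCKO.

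Genes that IL-1 induces through NF-kappaB did not move one way. Of 28 listed, 21 were tested, 3 were higher and 2 lower in TCKO, where 9.07% and 8.63% of all tested genes were. Under the replicate block 5 were higher and 4 lower (background 12% and 11.5%), and 3 were higher and 3 lower with the block on summed replicates 1 and 2 (background 4.22% and 4.09%). Tnfaip3, a feedback inhibitor of NF-kappaB, was higher (1.53 ± 0.27, edgeR adjusted p = 0.00853). Mmp3, stromelysin, had 4, 5 and 10 counts in WT against 169, 116 and 27 in TCKO (4.06 ± 0.76, edgeR adjusted p = 0.00998), again with the lowest TCKO value in replicate 3. That call was lost without WT replicate 1 or WT replicate 2 (edgeR adjusted p up to 0.0567). Ptgs2, the inducible cyclooxygenase, was higher (1.67 ± 0.47, edgeR adjusted p = 0.0460) but lost the call in 5 of the 6 fits without 1 library (up to 0.155, without WT replicate 2). The adhesion molecules Vcam1 (-1.34 ± 0.13, edgeR adjusted p = 0.000634) and Icam1 (-1.27 ± 0.16, edgeR adjusted p = 0.00187) were lower, and both stayed past the threshold in each fit without 1 library and with replicates 1 and 2 summed. The median over the 21 was -0.15.

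Toll-like receptors, which share the TIR domain with the IL-1 receptor family, lay on the other side. Of 12 genes, 9 were tested, all 9 had log2 fold changes below 0, and 5 passed, all lower, where the background was 8.63%. With the replicate block 7 were lower (background 11.5%), and with the block on summed replicates 1 and 2 only Tlr4 and Tlr13 were (background 4.09%). Tlr13 lies on chromosome X, and the part of sex in its values was not tested. Tlr4, the receptor for lipopolysaccharide, had 261, 360 and 260 counts in WT against 78, 68 and 40 in TCKO, with no overlap (-2.18 ± 0.23, edgeR adjusted p = 0.00083). Tlr1, Tlr3, Tlr5 and Tlr6 were also lower, with log2 fold changes of -2.90, -0.83, -1.34 and -1.47 (edgeR adjusted p = 0.0139, 0.0172, 0.0242 and 0.0188), and each lost the call in 4 of the 6 fits without 1 library. The median was -1.21. Macrophage markers, which go with several of these receptors, summed to 415 to 790 CPM in WT and 173 to 606 in TCKO. All 11 such markers had log2 fold changes below 0 (median -0.80), and 2 passed as lower, where the background was 8.63% (Adgre1, -1.44, edgeR adjusted p = 0.0100, and Csf1r, -1.21, edgeR adjusted p = 0.0253). Their part in the receptor values was not tested, and in bulk samples fewer cells of a type and less RNA per cell cannot be told apart. Among 8 other sodium/proton exchangers, relatives of Slc9a4, 6 were tested and Slc9a9 alone passed, lower (-0.90 ± 0.25, edgeR adjusted p = 0.0446). It lost the call with replicates 1 and 2 summed (edgeR adjusted p = 0.203) and in 3 of the 6 fits without 1 library (up to 0.160, without WT replicate 2).

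**Figure D4:**
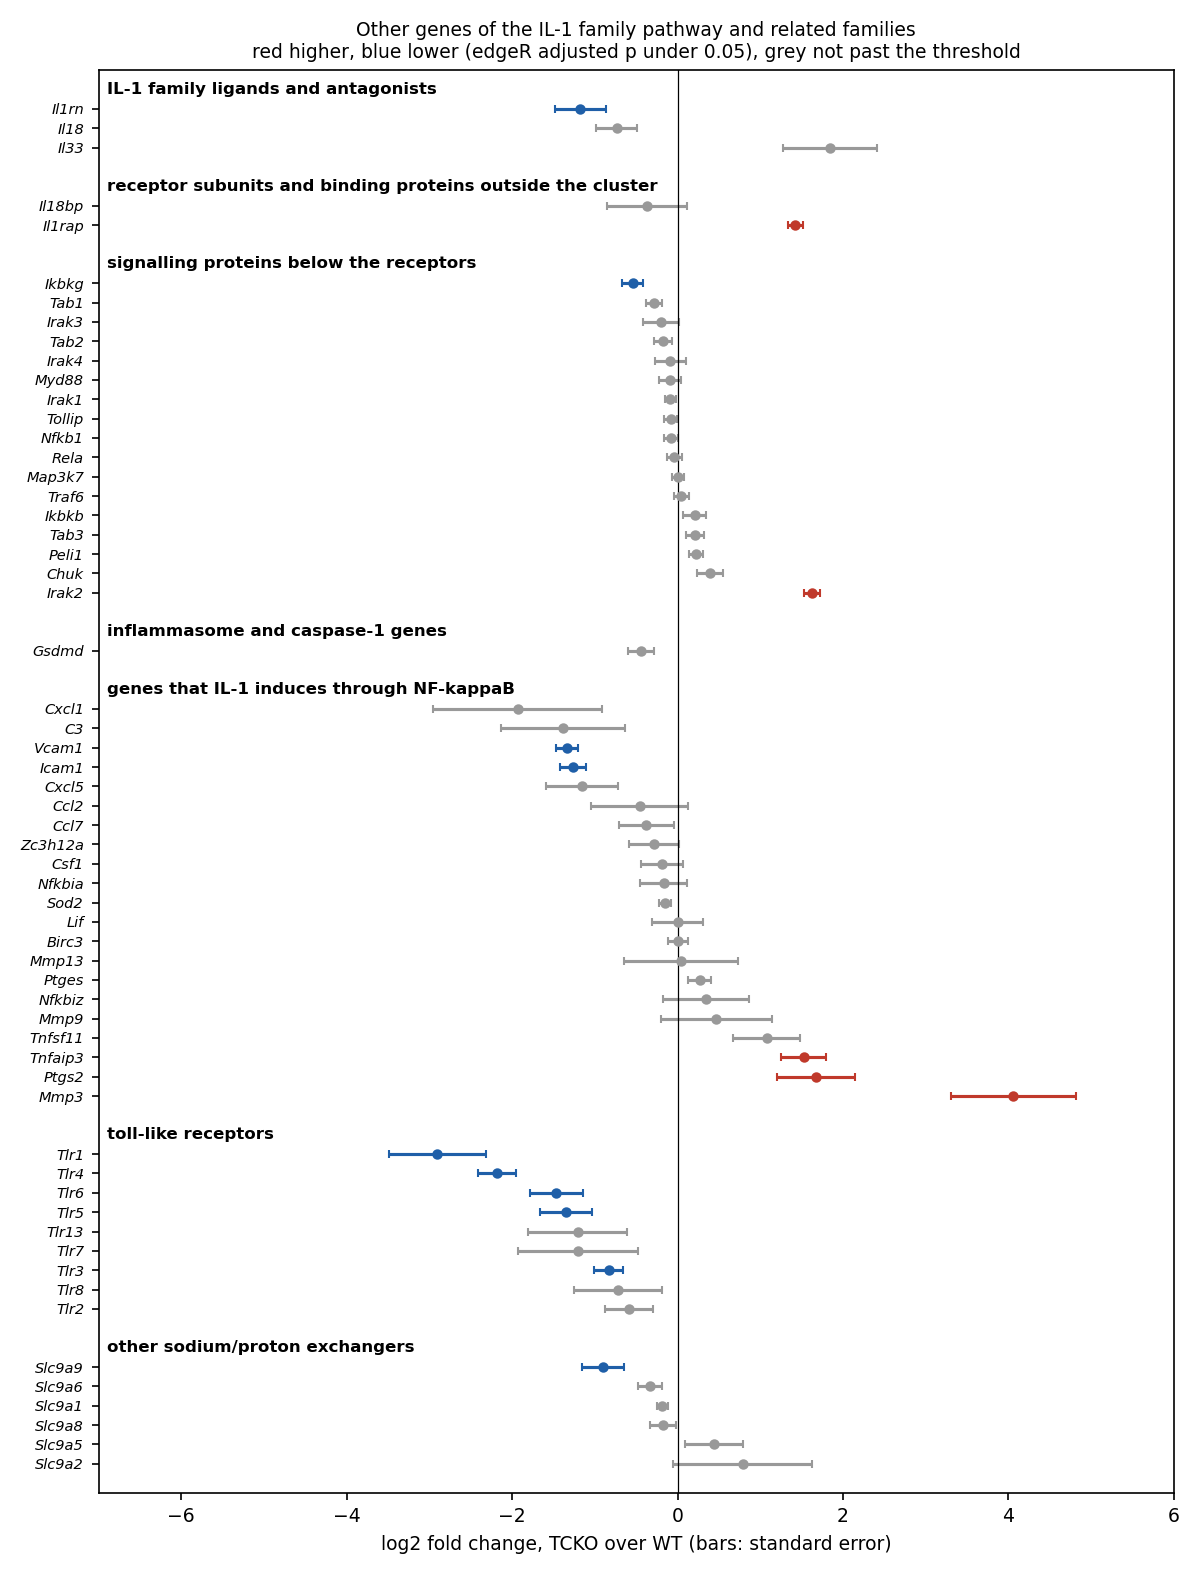
Log2 fold changes of TCKO over WT with standard errors (horizontal axis) for the 59 tested genes of the IL-1 family pathway and related lists, grouped by role; red genes were higher and blue genes lower at an edgeR adjusted p under 0.05. Il1rap and Irak2 stand apart to the right with narrow bars, and the 9 tested toll-like receptors all lie left of 0.

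Over all lists together, 59 of 85 genes were tested, 5 were higher and 10 lower, a share of 25.4% where the background was 17.7%. With the replicate block 24 passed, 9 higher and 15 lower (background 23.5%), and with the block on summed replicates 1 and 2 10 passed (background 8.32%). With replicates 1 and 2 of each genotype summed and no block 5 passed (background 2.79%, with 1.57% higher and 1.22% lower): Il1rap, Irak2, Icam1, Vcam1 and Tlr4. Of the fits without 1 library, 6 genes passed without WT replicate 1, 7 without WT replicate 2 and 16 without WT replicate 3. In these fits 1236, 1153 and 3122 of all 13826 tested genes passed, against 2447 with all libraries. Without TCKO replicates 1, 2 and 3 in turn, 7, 8 and 15 genes of the lists passed. Of all tested genes 1292, 1342 and 2882 did.

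Because ST2 and the IL-18 receptor are best known from immune cells, markers of such cells were read in the same libraries. Of 11 mast cell and basophil markers, Fcer1a, Cpa3, Tpsb2, Tpsab1 and Prss34 had 0 counts in all 6 libraries. Only Mcpt8, a basophil protease, was tested, and it was higher (9, 5 and 14 counts in WT, 327, 247 and 224 in TCKO, log2 fold change 4.85 ± 0.32, edgeR adjusted p = 0.000127). In TCKO it held nearly all of the summed marker level. That level was 1.55 to 2.41 CPM in WT and 26.5 to 38.3 CPM in TCKO. Kit had 2, 7 and 4 counts in WT against 2, 0 and 0 in TCKO, and Cma1 had 0, 3 and 1 against 4, 1 and 5. Hdc, Ms4a2 and Mcpt4 had at most 3 counts in each library. Which cells held the RNA of Mcpt8, Il1rl1 or Il18rap was not tested. Of 9 T and NK cell markers, 7 were at 0 in every library, Cd3e and Ncr1 among them. The sum of that list was 0.724 to 1.77 CPM in WT and 0 to 1.12 CPM in TCKO. None of 10 neutrophil markers had enough counts to test, and their sum was 0.357 to 3.14 CPM in WT and 1.26 to 2.40 CPM in TCKO. Of 10 osteoblast markers, 7 had enough counts to test, Col1a1 and Runx2 among them. Bglap, Bglap2 and Dmp1 had at most 5 counts in any library. The list summed to 31787 to 32859 CPM in WT and 17873 to 31777 CPM in TCKO. Col1a1 was its largest part, at a mean of 22334 CPM in WT and 14585 CPM in TCKO. Of the 7 tested genes Runx2, Col1a1 and Alpl were lower, Alpl at means of 30.4 CPM in WT and 2.56 CPM in TCKO. Spp1 was higher, at means of 1168 and 7165 CPM. The background was 8.63% lower and 9.07% higher.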

How the data were processed

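The deposited values were raw counts per gene. Per the labels and the study's methods, the authors made directional poly(A) libraries, aligned reads to GRCm38 (Ensembl release 99) with STAR 2.7.0e and counted with featureCounts 2.0.0; the strand setting was not given in the sources used here. No column was unassigned (0). Symbols were found for 99.4% of genes. Counts were tested in edgeR 4.0.16 (R 4.3.3; filterByExpr, TMM, quasi-likelihood test, Benjamini-Hochberg adjustment over 13826 genes, no covariates) and checked on simulated data. CPM used TMM factors; RPKM used the deposited exon length and total counts. Standard errors came from the quasi-likelihood fit. The cluster, gene lists and rules were chosen with earlier results of these data known. Named were the 7 cluster genes, list members, and flanking genes that passed. Replicate numbers came from the titles. Deviations from genotype means of same-numbered libraries correlated across genes (r = 0.204, 0.214 and 0.347). Those of numbers 1 and 2 correlated as much across numbers (r = 0.225 and 0.188), and those of 3 with 1 or 2 were negative (-0.249 to -0.282). The values thus set number 3 apart and show no pairing by number between 1 and 2. A replicate block was an alternative, with DESeq2 1.42.0, other scalings and filters, summed replicates and each library left out. The median log2 fold change of all genes was 0.00. Promoter windows were from RefSeq; Slc9a4 had no entry and is named only.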

Additional observations from a re-analysis of the deposited data

How the results depend on the processing

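The number of genes called over the whole table was 878. It was 543 with a mean of at least 50 counts required, 324 with replicates 1 and 2 of each genotype summed, and 595 (without WT replicate 2) to 1049 (without WT replicate 3) with 1 library left out. The 15 pathway genes past the threshold became 24 with the replicate block, 5 with replicates 1 and 2 summed, 35 within replicates 1 and 2, and 6 to 16 with 1 library left out. At the same threshold 2447 of all 13826 tested genes passed in the main fit and 3249 with the replicate block. That number was 386 with replicates 1 and 2 summed, 1150 with the same and the block, and 6237 within replicates 1 and 2. It was 1153 to 3122 with 1 library left out. The 3 flanking genes became 1 with replicates 1 and 2 summed, 1 with the same and a replicate block, and 1 to 3 with 1 library left out. The cause of these moves was not tested. For the cluster, Il1r1 moved to -0.28, Il1rl2 to 0.27, Il1rl1 to 2.50 and Il18rap to 3.36 (log2 fold changes) between the libraries numbered 3, and Il18rap to 4.09 within replicates 1 and 2. With 1 library left out, they ranged from -0.03 to 0.42 for Il1r1, 0.45 to 0.61 for Il1rl2, 3.31 to 3.84 for Il1rl1 and 3.77 to 4.05 for Il18rap. The replicate block gave 0.18, 0.53, 3.40 and 3.88 in that order and turned no direction in the cluster. DESeq2 gave 0.15, 0.53, 3.52 and 3.90. The log2 ratio of Il1rl1 to Il1r1 stayed between 0.13 and 0.53 in WT and between 3.28 and 3.95 in TCKO with 1 library left out. The ratio of Il1r2 to Il1r1 was not run. Depth limits Il1r2, Il18r1 and Slc9a4, for which a level under 3 counts cannot be told from 0.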
